A study of Mus musculus with 12 samples.

Results

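The response of wild-type vascular smooth muscle cells of the mouse to platelet-derived growth factor BB (PDGF-BB) was measured by sequencing of poly(A) RNA. The comparison set 3 libraries of wild-type cells given 40 µg/L PDGF-BB for 6 h against 3 libraries of untreated wild-type cells, which makes 6 of the 12 libraries of the study. All genes with at least 1 CPM (counts scaled to a library sum of 1000000) in at least 3 of the 12 libraries entered it, 14202 of the 55487 genes in the table. The other 6 libraries came from cells labelled as TIGAR knockout, 3 untreated and 3 with the same dose and time, and were used for the spread between libraries and for the test of a difference between the 2 responses. Per the labels, both wild-type groups were primary cultures from mice of 4 to 6 weeks of age, grown in medium with fetal bovine serum and used between passages 4 and 6, with an RNA integrity number above 7.0. The treatment is the only difference between them that the labels give, and no withdrawal of serum before PDGF-BB is described. No label states if libraries within a group stem from different animals or dishes, so the p-values measure only the spread between these samples, which may be technical.

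PDGF-BB is a dimeric growth factor that binds and activates receptor tyrosine kinases on smooth muscle cells and fibroblasts. The activated receptors recruit RAS and ERK, phosphoinositide 3-kinase with AKT, and phospholipase C, and these switch on early transcription factors and growth metabolism within hours. In the vessel wall the factor is best known for driving smooth muscle cells from a contractile towards a dividing, migrating and matrix-producing state, a change seen after injury and in atherosclerosis.

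The cells were checked against marker genes of smooth muscle and of other cell types. Acta2, smooth muscle alpha-actin, stood at 1472, 1849 and 1424 CPM in the untreated libraries and 1569, 1192 and 1133 CPM in the treated ones. Myh11, the smooth muscle myosin heavy chain, stood at 71.8, 77.6 and 64.9 CPM in the untreated libraries and 28.0, 38.9 and 40.7 CPM in the treated ones. Of the 10 smooth muscle markers, Des (desmin) was under 1 CPM in all 6 libraries, and Tagln stood at 3.41 ± 0.707 to 4.30 ± 1.32 CPM (mean ± SD, n = 3 each, untreated to treated). Tagln shares 67.9% of its exon sequence with opposite-strand genes, Pcsk7 among them, and the strand setting of the counting is not given in the sources used here. The 12 adventitial fibroblast markers summed to 2060 to 2208 CPM in untreated and 1894 to 2122 CPM in treated libraries, close to the 2036 to 2569 and 1643 to 2197 CPM of the smooth muscle markers. The 12 endothelial markers summed to 167 to 176 and 151 to 160 CPM, and the 12 macrophage markers to 141 to 152 and 108 to 158 CPM. Cldn5 and Itgam, defining genes of these last cell types, were under 1 CPM in all 6 libraries, but Cdh5, Pecam1, Cd68 and Lyz2 were measured. The glial genes Sox10 and Foxd3, the epithelial genes Epcam, Krt5 and Krt8 and the muscle regulator Myod1 were at 0 in all 6. Of the markers tested, 1 of 9 rose and 4 fell for smooth muscle, 1 of 10 and 4 for fibroblasts, 1 of 11 and 6 for endothelium, and 0 of 10 and 2 for macrophages. Without treated library 1 the counts were 0 and 4 for macrophages and 0 and 4 for fibroblasts. Markers of pericytes, many of which smooth muscle also expresses, summed to 1018 to 1088 and 918 to 1314 CPM, those of Schwann cells to 49.8 to 57.1 and 37.6 to 59.1 CPM, and those of adipocytes, epithelium and striated muscle each to at most 19.6 CPM. In such bulk RNA, fewer cells of a type and less RNA per cell cannot be told apart, and the part of other cell types in the results below was not tested.

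Wild-type libraries held 15045270 to 19639729 reads. Replicate 1 of the treated group, called treated library 1 here, stood apart from treated libraries 2 and 3. Its deviation from the group mean of log2(CPM + 1) was related to exon length across genes with a Spearman rho of -0.58. The rho was 0.43 and 0.53 in its replicates and -0.25 to 0.17 in the 3 untreated libraries. Deviations from a group mean cancel out within the group, so a trend in 1 library brings opposite trends in its replicates. The median deviation in treated library 1 was 0.26 for the 1644 genes with under 1000 exonic bases and -0.17 for the 4346 genes with 4000 or more. Counts of a list without this library are therefore also given where they differ by more than 1.5 times from those with all libraries, and for some other lists and genes.

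PDGF-BB changed most of the measured genes within 6 h. Genes that build ribosomes, charge transfer RNA and make sterols rose, in counts of 45 of 47, 21 of 23 and 29 of 38. Genes induced by interferon, genes restrained by growth factors and genes of mitosis fell, in counts of 31 of 38, 25 of 32 and 22 of 30. By limma's test on log2(CPM + 1), at an adjusted p below 0.05, 3547 genes were higher, which is 25.0% of the genes tested, and 4884 were lower, which is 34.4%. Either direction was called for 59.4%, and the 3 treated libraries did not overlap the 3 untreated ones for 62.3%. The median log2 change over all genes was -0.082. A log2 change here is the difference between group means of log2(CPM + 1), so it understates the ratio of genes of few CPM, and every change given in the text without another unit is on this log2 scale. These shares are the background for each count of a gene list in the text, and counts near them tell nothing particular to a list. Beyond the 4 largest called changes of each list, members were named after their values had been seen. Most changes were small: 1411 genes changed at least 2-fold, 528 of them higher and 883 lower, and 70 rose and 52 fell at least 4-fold. Genes called higher took 232366 CPM of the untreated and 361418 CPM of the treated mean library, and genes called lower 371880 and 239813 CPM. The median SE of a log2 change was 0.12, and for 253 genes the 95% interval of the change lay within 0.2 on either side of 0. With TMM scaling, which sets the bulk of genes to no change, 4189 genes were higher (29.5%) and 4175 lower (29.4%). By edgeR's test on reads recovered from the CPM values, 4312 were higher (30.4%) and 4102 lower (28.9%).

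**Figure D1:**
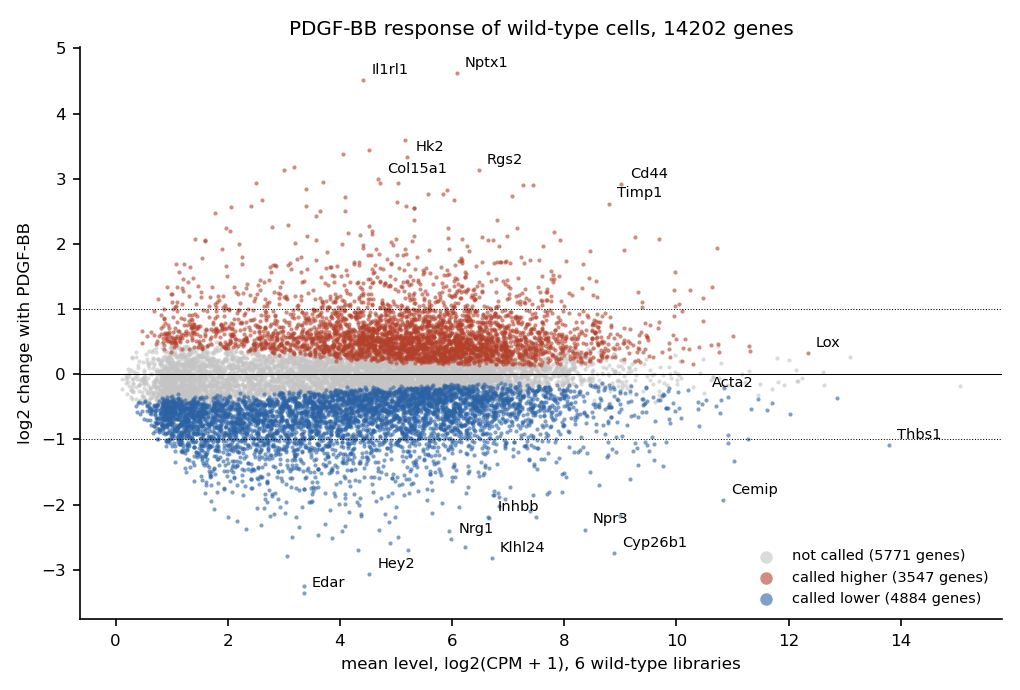
Log2 change with PDGF-BB (vertical axis) against mean level in log2(CPM + 1) (horizontal axis) for the 14202 genes, coloured by call, with dotted lines at a 2-fold change. Beyond these lines lie 528 rises and 883 falls, and Nptx1 and Il1rl1 lay highest at log2 changes of 4.62 and 4.51.

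Leaving out treated library 1 left the large changes in place. All 1411 genes called at 2-fold or more were called in the same direction without it. Of all 8431 calls, 7890 were made again, 541 were lost, none turned, and 1154 other genes were called, which gave 3761 higher (26.5%) and 5283 lower (37.2%). The 541 lost calls had log2 changes of at most 0.96 in size. Among named genes with libraries that did not overlap, the largest lost change was that of Dnph1, a nucleotide hydrolase, which stood at 2.46, 2.14 and 2.20 CPM in the untreated libraries and 7.23, 2.99 and 3.19 CPM in the treated ones. Its log2 change was 0.66 with all libraries (limma adjusted p = 0.02) and 0.32 without treated library 1 (adjusted p = 0.0722). The falls of Sdk1, Pabpc5, Cyp2s1, Morn1 and Paqr3 lost their calls in the same way.

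**Figure D2:**
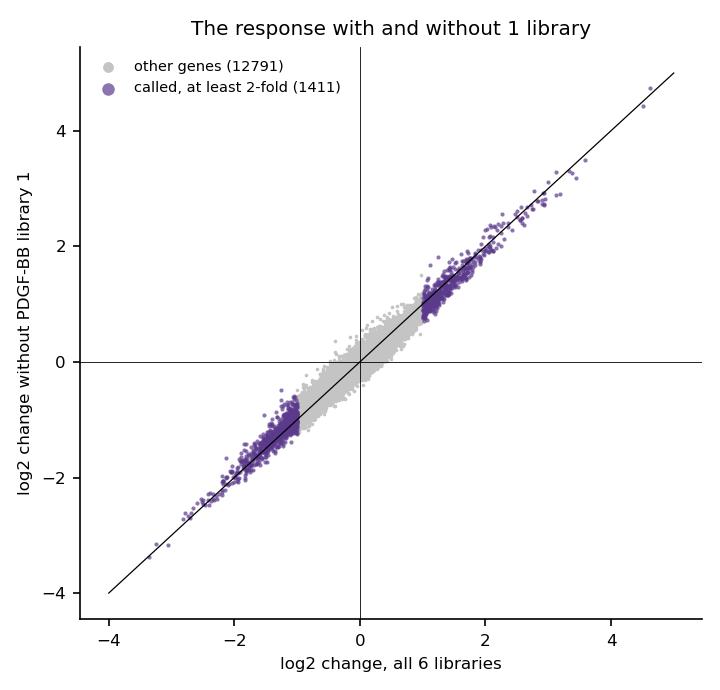
Log2 change of each gene without treated library 1 (vertical axis) against the change with all 6 libraries (horizontal axis), with the line of equality. The 1411 genes called at 2-fold or more lie on the same side of 0 on both axes.

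Genes of the receptor and its adaptors changed in both directions. The receptor gene Pdgfrb had a log2 change of 0.11 (95% interval -0.13 to 0.34) and was not called, while Pdgfra fell from 107, 92.6 and 104 CPM untreated to 60.6, 71.7 and 72.5 CPM treated, with no overlap. In the list of PDGF receptor signalling 10 of 34 rose (29.4%) and 12 fell (35.3%), with a median of 0.021. With all libraries these shares were close to the 25.0% and 34.4% of all genes tested. The counts were 15 and 10 without treated library 1. Among adaptors and kinases, Hras rose by 0.98 on the log2 scale, the ERK kinases Map2k1 and Map2k2 by 0.69 and 0.64, and Akt1 by 0.61. Gab1, a docking protein of receptor kinases, fell from 72.7, 72.0 and 69.6 CPM untreated to 21.1, 19.4 and 20.5 CPM treated. Its treated libraries lay far below the untreated ones, at a log2 change of -1.76 (SE 0.075, limma adjusted p = 1.64e-09). Pik3r1, the regulatory subunit of phosphoinositide 3-kinase, fell by 0.74 and Plcg1 by 0.55 on the log2 scale.

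Genes that damp ERK signalling rose together. Of the ERK feedback list, 13 of 19 rose and 1 fell, with a median of 0.79. They comprise the DUSP phosphatases, which dephosphorylate ERK and its relatives, and the Sprouty and Spred proteins, which act upstream on RAS. Dusp5, a nuclear ERK phosphatase, stood at 6.18, 8.45 and 5.12 CPM in the untreated libraries and 72.9, 51.0 and 46.5 CPM in the treated ones. Every treated library was above every untreated one, at a log2 change of 2.93 (SE 0.17, limma adjusted p = 2.32e-08). Errfi1, an inhibitor of the EGF receptor, went from 34.6, 37.1 and 34.4 CPM untreated to 176, 189.9 and 193 CPM treated, and Spry4 from 3.47, 2.75 and 2.86 CPM untreated to 15.1, 17.0 and 17.0 CPM treated. Dusp6, the cytoplasmic ERK phosphatase, rose by 1.83 and Spry2 by 1.45 on the log2 scale. The only fall was in Dusp16 (log2 change -0.37), a JNK and p38 phosphatase, and Dusp1 had no call (-0.21, 95% interval -0.55 to 0.13).

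Most of the early genes measured were higher with PDGF-BB at 6 h, with exceptions. Of the EGR, NR4A and IER early genes, 16 of 21 rose and 1 fell, with a median of 0.67. Arc rose by 2.51 on the log2 scale and the orphan nuclear receptor Nr4a3 by 2.04. Sgk1, a kinase activated downstream of phosphoinositide 3-kinase, rose by 1.97 on the log2 scale, and Ier2 by 1.81. Egr2, a zinc finger factor of the EGR family (ENSMUSG00000037868, chromosome 10, 67535475 to 67542188, GRCm38), stood at 0.882, 1.48 and 0.894 CPM in the untreated libraries and 3.52, 2.99 and 3.25 CPM in the treated ones. The groups did not overlap, at a log2 change of 1.04 (SE 0.16). Egr1 went from 72.5, 81.4 and 61.7 CPM untreated to 241, 233 and 236 CPM treated, the treated libraries all above the untreated ones. Btg2, a growth-restraining early gene, was the only member to fall, by 1.04 on the log2 scale. Among the 9 AP-1 subunits, which pair to bind DNA as FOS and JUN dimers, 4 rose and 3 fell. Fosl1 went from 0.441, 0.917 and 0.536 CPM untreated to 10.6, 15.3 and 14.2 CPM treated (log2 change 3.13, SE 0.18), and Jun rose by 1.79. Fosb fell by 1.18 on the log2 scale and Fos by 0.45, so members of the same family moved in opposite directions. Fosl1 shares 57.2% of its exon sequence with Ccdc85b, which is annotated on the opposite strand.

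Promoter windows were read from RefSeq (GRCm38.p6), from 250 bases before to 50 after each annotated start, for 10427 of the 14202 genes, 13383 windows in all. The CArG box, the site of serum response factor, is the first of 5 motifs searched on both strands, and its match is shown in capitals in the Egr2 window (chr10:67537316-67537615, plus strand), chosen as the early gene with the largest change among those with a match.
Egr2: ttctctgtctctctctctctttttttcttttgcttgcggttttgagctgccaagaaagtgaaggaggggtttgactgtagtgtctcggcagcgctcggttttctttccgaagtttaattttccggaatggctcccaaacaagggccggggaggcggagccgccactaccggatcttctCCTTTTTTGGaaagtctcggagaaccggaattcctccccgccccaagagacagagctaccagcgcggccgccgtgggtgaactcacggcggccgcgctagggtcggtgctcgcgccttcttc

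In this window the box lies at 72 to 63 bases before the start. The CArG box was found in 6 of 27 windows of the EGR, NR4A and IER list, in 3 of its 15 genes with a window, against 1.27% of all windows. The 3 genes were Egr2, Srf and Zfp36, the last without a call (log2 change -0.045). It was in 5 of 37 windows of contractile genes, and of these 5 genes Srf, a member of both lists, rose, Fhl1 fell by 1.07 on the log2 scale, and Cnn2 (-0.17), Myl6 (0.18) and Myl9 (-0.27) had no call. Among the 10 windows of AP-1 subunits there was no match.

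Other growth regulators among the transcription factors moved apart. Of the 14 Krüppel-like factors, zinc finger regulators of growth and differentiation, 3 rose and 7 fell. Klf10 rose by 1.34 on the log2 scale and Klf4, known as a repressor of contractile genes in injured vessels, by 0.61. Klf11 went from 32.8, 35.2 and 33.3 CPM untreated to 3.77, 4.39 and 5.03 CPM treated, and Klf15 from 18.7, 21.1 and 23.3 CPM untreated to 3.70, 2.53 and 4.41 CPM treated, with all treated libraries far below. Klf5 fell by 1.58 on the log2 scale. The MYC network includes factors that pair with MAX to drive or oppose growth genes. In this network Myc went from 16.1, 14.7 and 15.2 CPM untreated to 43.1, 41.4 and 38.3 CPM treated (log2 change 1.36, SE 0.097). Mlx rose by 1.07 on the log2 scale. Of the network's 12 members 5 fell. They were the MYC antagonists Mxd1 (log2 change -0.65), Mxi1 (-0.56), Mxd4 (-0.42, and -0.22 without library 1) and Mnt (-0.39), and Mlxip (-0.71), a glucose-responsive factor. Max itself was not called (log2 change 0.17, 95% interval -0.036 to 0.37).

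Growth factor genes divided into a rising and a falling set. Of 30 ligands, 12 rose and 12 fell. Hbegf, a ligand of the EGF receptor, stood at 14.7, 11.7 and 14.6 CPM in the untreated libraries and 114, 89.7 and 91.0 CPM in the treated ones. Every treated library was far above the untreated ones, at a log2 change of 2.76 (SE 0.12). The EGF receptor ligands Ereg (log2 change 2.11), Epgn (1.92) and Tgfa (1.74) rose as well, but Btc (-0.97) and Egf (-0.47) fell, the last with a call lost without treated library 1. Nrg1, a neuregulin that binds the related ERBB receptors, went from 118, 97.7 and 103 CPM untreated to 14.1, 18.5 and 20.5 CPM treated, with no overlap (log2 change -2.53, SE 0.13). Fgf18 fell by 2.00 on the log2 scale, and the lymphatic growth factors Vegfc and Vegfd by 1.68 and 1.06, while Vegfa rose by 0.75. Pdgfb and Pdgfd, ligands of the PDGF receptors themselves, fell by 0.48 and 0.88 on the log2 scale.

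**Figure D3:**
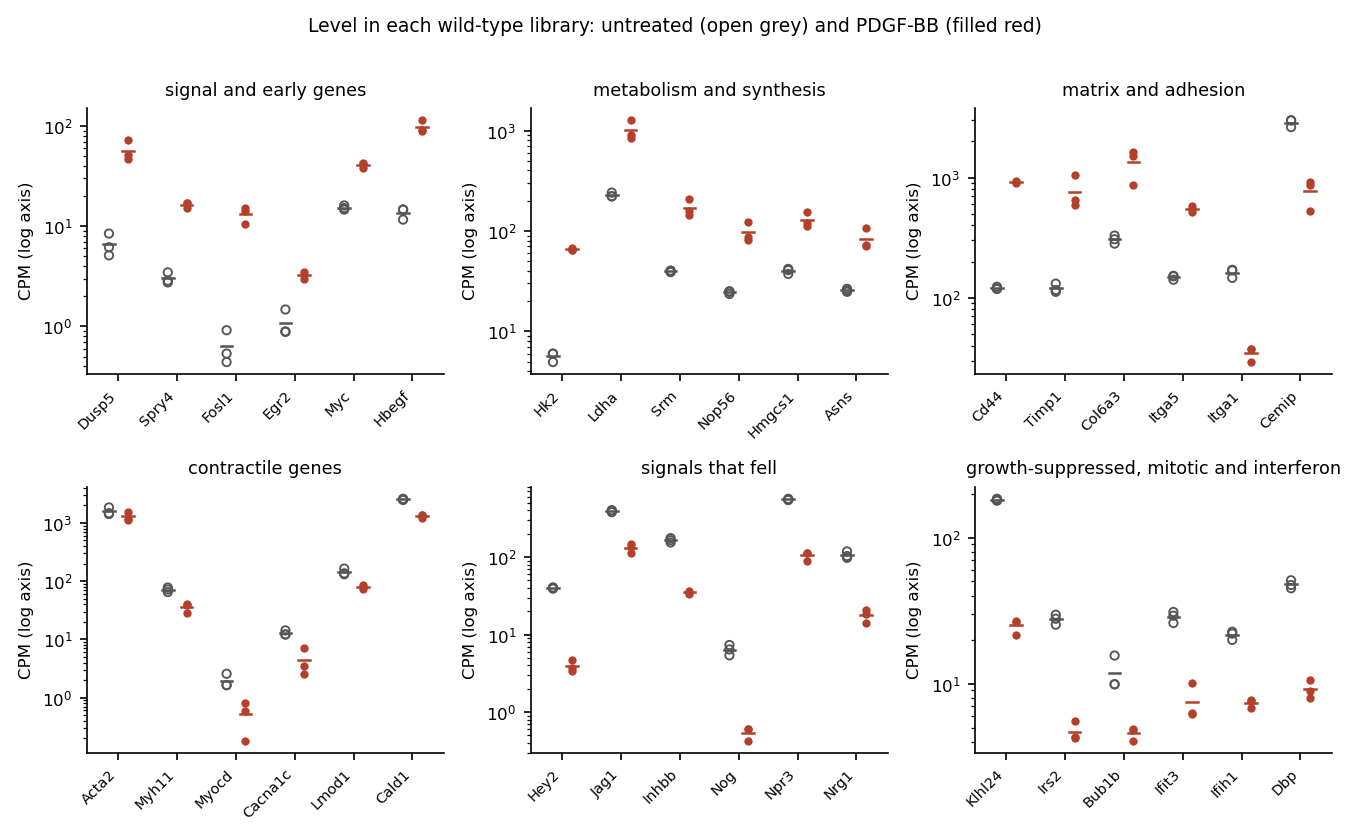
CPM on a log axis for 36 genes in each untreated (open grey) and treated (filled red) wild-type library, with short lines at the group means. Groups did not overlap for any gene shown except Acta2, whose treated libraries spread from 1133 to 1569 CPM, against 1424 to 1849 CPM untreated.

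Genes of the machinery for making proteins rose, in the largest share among ribosome assembly factors. Of the ribosome biogenesis factors, nucleolar proteins that cut, modify and fold ribosomal RNA, 45 of 47 rose and 0 fell, with a median of 1.15. The same counts, 45 and 0, were found without treated library 1. Nop56, a core protein of small nucleolar ribonucleoproteins, stood at 24.8, 25.1 and 23.6 CPM in the untreated libraries and 122, 87.9 and 80.4 CPM in the treated ones. All treated libraries exceeded all untreated ones (log2 change 1.92, SE 0.12, limma adjusted p = 4.49e-08). Rrp12 rose by 1.84 on the log2 scale, the helicase Ddx21 by 1.70, Nhp2 by 1.68 and fibrillarin, Fbl, by 1.63. The 2 members without a call were Ddx52 and Nop10. The E-box CACGTG, bound by MYC with MAX, is shown in the window of Pno1, a late factor of the small subunit (chr11:17211540-17211839, minus strand), the member with the largest rise (log2 change 1.62) among those with a match.
Pno1: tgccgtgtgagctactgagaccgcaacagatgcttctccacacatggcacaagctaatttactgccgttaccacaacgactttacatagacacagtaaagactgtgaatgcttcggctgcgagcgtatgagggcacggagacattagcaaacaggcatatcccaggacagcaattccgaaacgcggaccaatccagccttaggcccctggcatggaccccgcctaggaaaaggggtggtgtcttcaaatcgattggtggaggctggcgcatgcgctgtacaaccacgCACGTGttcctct

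The match lies 37 to 42 bases after the annotated start. This motif was in 9 of 46 windows of ribosome biogenesis factors (19.6%) and in 15.0% of windows of genes called higher by at least 2-fold, against 9.62% of all windows and 7.94% for genes called lower by at least 2-fold. It was also in 6 of 35 windows of growth-suppressed genes (17.1%), most of which fell, and in 7 of 35 of sterol and fatty acid genes.

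Subunits and regulators of RNA polymerases I and III, which make ribosomal and transfer RNA, rose in part: 16 of 35 rose and 4 fell, and 19 and 6 without treated library 1. Polr1e rose by 1.13 on the log2 scale and Polr1a, the largest polymerase I subunit, by 0.89, while Maf1, a repressor of polymerase III, fell by 0.82. Of the cytosolic tRNA synthetases and their scaffold proteins, which load amino acids onto transfer RNA, 21 of 23 rose and 0 fell, with a median of 0.90. Alanyl-tRNA synthetase, Aars, went from 108, 119.9 and 105 CPM untreated to 276, 269 and 260.2 CPM treated. Of the translation factors, 33 of 47 rose and 3 fell, with a median of 0.46, and 33 and 6 without treated library 1. The cap-binding protein Eif4e went from 40.9, 41.6 and 43.1 CPM untreated to 120.3, 98.5 and 92.1 CPM treated, and its helicase partner Eif4a1 rose by 1.19 on the log2 scale. Eif4b and the elongation factor Eef2 fell, by 0.72 and 0.38 on the log2 scale, so the falls included helpers of the same steps. The ribosomal proteins themselves gave no such count: 19 of 78 rose and 0 fell. Their median change against the untreated mean was 0.92, 0.17 and -0.038 in treated libraries 1 to 3, so the list stood high mainly in library 1. The list's median was 0.33 with all libraries and 0.065 without that library, where 16 rose and 3 fell. With TMM scaling 43 were called higher, and by edgeR 51, none lower by either. With each library's trend with exon length removed, the list's median was 0.21 over all libraries. These messages are short and have many processed copies in the genome, and the part of either in the shift of library 1 was not tested.

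Most genes of protein folding and breakdown rose as well. Of cytosolic and mitochondrial chaperonins and their helpers, 27 of 35 rose and 1 fell, with a median of 0.58, and the counts were 27 and 3 without treated library 1. The mitochondrial chaperones Hspd1 and Hspa9 rose by 1.41 and 1.32 on the log2 scale, and Cct6a, a subunit of the chaperonin that folds actin and tubulin, by 1.14. The stress-inducible Hspa1a was the only fall (log2 change -0.79). Of the endoplasmic reticulum genes, 22 of 28 rose and 2 fell, with a median of 0.40. Hspa5, the main chaperone of that compartment, went from 721, 697 and 684 CPM untreated to 2111, 1585 and 1497 CPM treated, Manf rose by 1.31 on the log2 scale and the factor Xbp1 by 1.13. Of the proteasome subunits, 33 of 39 rose and 0 fell, with a median of 0.61, led by Psmd14 (log2 change 1.04) and Psmc4 (1.0). Their median change was 1.04, 0.48 and 0.36 in treated libraries 1 to 3, above 0 in each but largest in library 1, without which the counts were 33 and 1. The interferon-inducible subunits Psmb8 and Psmb9 had no call, at 0.14 and -0.24 on the log2 scale.

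Of the genes that supply nucleotides, polyamines and amino acids, more rose than fell in each list except the transporters. Of the nucleotide synthesis genes, 16 of 29 rose and 7 fell, with a median of 0.52. Mthfd2, a mitochondrial folate enzyme that feeds purine synthesis, stood at 10.6, 12.3 and 9.06 CPM in the untreated libraries and 77.7, 61.7 and 62.9 CPM in the treated ones. The groups were far apart, at a log2 change of 2.56 (SE 0.16, limma adjusted p = 2.93e-08). Mthfd1l, the next enzyme of that route, rose by 2.36 on the log2 scale, Nme1 by 1.77 and Shmt2 by 1.53. Among the falls were Shmt1 (log2 change -1.06), the cytosolic counterpart of Shmt2, the ribonucleotide reductase subunits Rrm1 (-0.55) and Rrm2b (-0.35), and Prps2, Ctps2 and Paics. Of the polyamine genes, 10 of 16 rose and 3 fell. Spermidine synthase, Srm, went from 40.1, 40.2 and 38.8 CPM untreated to 208, 158 and 145 CPM treated, and Eif5a, the protein that carries a spermidine-derived residue, rose by 1.22 on the log2 scale. Odc1, the first enzyme of the pathway, rose by 0.78 on the log2 scale and Amd1 by 1.27. Amino acid transporters divided evenly, with 9 of 22 higher and 9 lower. Slc7a5, an importer of large neutral amino acids, rose by 1.48 on the log2 scale and the arginine importer Slc7a1 by 1.38, while Slc6a6, the taurine importer, fell by 1.60 and Slc38a9, a lysosomal arginine sensor, by 1.2. Of the ATF4 targets, genes of the amino acid stress response, 19 of 26 rose and 1 fell, with a median of 0.84. Psat1 and Phgdh of serine synthesis rose by 1.89 and 1.03 on the log2 scale, and asparagine synthetase, Asns, went from 24.8, 26.5 and 25.5 CPM untreated to 107, 72.8 and 70.4 CPM treated. Vldlr alone fell (log2 change -1.17). Without treated library 1 the list had 19 rises and 4 falls.

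Most genes of glucose uptake, glycolysis and lactate export rose, and some alternative isoforms fell. Of the list, 22 of 36 rose and 9 fell, with a median of 0.55. Hk2, the hexokinase that commits glucose to the cell, stood at 5.99, 6.01 and 4.94 CPM in the untreated libraries and 68.0, 65.2 and 64.2 CPM in the treated ones. Its libraries within each group lay close together, and the log2 change was 3.33 (SE 0.099, limma adjusted p = 8.51e-11). The lactate exporter Slc16a3 went from 8.82, 10.1 and 9.06 CPM untreated to 69.6, 56.0 and 57.4 CPM treated and lactate dehydrogenase Ldha from 220.4, 241 and 223 CPM untreated to 1265, 904 and 840.2 CPM treated. The glucose transporter Slc2a1 rose by 1.70 on the log2 scale, Pfkl by 1.75 and Pgk1 by 1.69. Ldhb, the other lactate dehydrogenase subunit, fell by 0.64 on the log2 scale and Pfkm by 0.61, and the pyruvate dehydrogenase kinases Pdk4 and Pdk2 fell by 1.93 and 1.25 while Pdk1 rose by 1.09. Gapdh stood at 20.3 ± 1.39 to 54.5 ± 5.71 CPM, low beside Eno1 at 653 ± 15.5 to 1359 ± 251 CPM, and is uncertain, since it has many processed copies between which the counting could split reads. In the pentose phosphate and NADPH list 9 of 18 rose and 4 fell, and 9 and 6 without library 1. G6pdx, its first enzyme, rose by 0.90 on the log2 scale and Taldo1 by 0.66, whereas H6pd and the mitochondrial malic enzyme Me3 fell by 0.46 and 0.57. Of the hypoxia targets outside glycolysis, 18 of 28 rose and 8 fell. Ak4, Higd1a and Egln3 rose by 2.64, 2.24 and 2.01 on the log2 scale, and Plod2, Angptl4 and Ndrg1, which are also known hypoxia targets, fell by 1.32, 1.21 and 1.12. Hif1a itself rose by 0.25 on the log2 scale and Epas1 fell by 0.62.

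Of the respiratory chain genes in the nucleus, 11 of 41 rose and 0 fell, but the median change was 0.80, 0.16 and -0.043 in treated libraries 1 to 3. Without library 1 there were 10 rises and 3 falls, and edgeR with all libraries called 25 higher. Cytochrome c, Cycs, went from 15.4, 18.0 and 14.3 CPM untreated to 54.1, 38.5 and 44.1 CPM treated and was the largest of them (log2 change 1.45, and 1.33 without library 1). Of the NRF2 targets, genes of the antioxidant response, 12 of 25 rose and 5 fell, and 12 and 8 without library 1. Srxn1 rose by 1.26 on the log2 scale and Osgin1 by 0.93, while Cat, catalase, fell by 0.51 and the NRF2 antagonist Bach1 by 0.78.

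Most genes of sterol and fatty acid synthesis rose. Of the list, 29 of 38 rose and 2 fell, with a median of 0.86. Without treated library 1 the counts were 29 and 4. The members form the mevalonate pathway to cholesterol, fatty acid synthesis and their regulators. Cyp51, which demethylates lanosterol, went from 32.2, 33.2 and 31.1 CPM untreated to 126, 108 and 99.4 CPM treated, and Msmo1, which acts later on the same route, from 32.9, 34.6 and 30.2 CPM untreated to 136, 93.8 and 99.1 CPM treated. Neither had overlapping groups, at log2 changes of 1.75 (SE 0.15) and 1.70 (SE 0.18). Idi1, the isomerase of the isoprenoid units, rose by 1.85 on the log2 scale, and the falls were in Acacb (-1.74), an isoform of acetyl-CoA carboxylase that restrains fatty acid oxidation, and the desaturase Fads1 (-0.57). The regulators Srebf2 and Srebf1 rose by 0.54 and 0.35 on the log2 scale. The sterol element TCACNCCAC is shown in the window of Hmgcs1, which makes the precursor of mevalonate (chr13:119690101-119690400, plus strand), the only member with a match (log2 change 1.66).
Hmgcs1: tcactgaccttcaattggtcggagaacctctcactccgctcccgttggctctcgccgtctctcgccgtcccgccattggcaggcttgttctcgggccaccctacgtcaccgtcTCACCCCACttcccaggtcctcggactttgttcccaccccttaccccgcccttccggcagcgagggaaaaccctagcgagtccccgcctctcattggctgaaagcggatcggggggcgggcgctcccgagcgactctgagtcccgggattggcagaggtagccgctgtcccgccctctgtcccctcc

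The match lies 137 to 129 bases before the start. The element was in 1 of 35 windows of this list and 3 of 54 of the glycolysis list, against 1.11% of all windows. It was in 0.79% of windows of genes called higher by at least 2-fold and 0.69% for genes called lower by at least 2-fold.

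Genes known to be restrained by growth factors fell. Of the FoxO and growth-suppressed genes, 2 of 32 rose and 25 fell, with a median of -0.82. FoxO factors are held out of the nucleus by AKT, and their targets include cell cycle brakes, atrophy genes and parts of the insulin pathway. Klhl24, an ubiquitin ligase adaptor, stood at 182, 179 and 184 CPM in the untreated libraries and 21.4, 26.6 and 27.0 CPM in the treated ones. No treated library came near an untreated one (log2 change -2.82, SE 0.086, limma adjusted p = 1.02e-10). Irs2, an insulin receptor substrate, went from 27.8, 25.3 and 29.6 CPM untreated to 4.25, 5.52 and 4.29 CPM treated and the muscle atrophy ligase Fbxo32 from 45.6, 43.8 and 43.8 CPM untreated to 8.99, 7.78 and 11.5 CPM treated. Pik3ip1, an inhibitor of phosphoinositide 3-kinase, fell by 1.74 on the log2 scale, Txnip, which limits glucose uptake, by 1.26, and Ccng2 by 1.42. The pro-apoptotic genes Bcl2l11 and Bmf fell by 1.01 and 2.37 on the log2 scale. Tob2 and Foxo1 rose, by 0.25 and 0.19 on the log2 scale. Of the circadian genes, 4 of 21 rose and 13 fell. Dbp, an output factor, went from 44.9, 51.0 and 47.3 CPM untreated to 10.5, 7.98 and 8.95 CPM treated and Per3 fell by 1.42 on the log2 scale, while the repressor Bhlhe40 rose by 2.55 and Arntl, the partner of CLOCK, by 1.60. In the p53 list 6 of 27 rose (22.2%) and 12 fell (44.4%), with a median of -0.088. Trp53 and the cell cycle inhibitor Cdkn1a were not called, at 0.037 and 0.093 on the log2 scale (95% interval -0.065 to 0.25). Of the autophagy and lysosome genes, 5 of 40 rose (12.5%) and 17 fell (42.5%), with a median of -0.091. The largest changes were falls of Atg14 (log2 change -0.94), Npc1 (-0.87), Ulk2 (-0.85) and Mcoln1 (-0.81). With all libraries both medians were close to the -0.082 of all genes, of which 25.0% rose and 34.4% fell. Without library 1 the autophagy counts were 7 and 25, with a median of -0.24.

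Genes of mitosis fell, while those of earlier cell cycle phases changed in both directions. Of 22 cyclins, kinases and inhibitors of the first phase, 7 rose (31.8%) and 6 fell (27.3%), against 25.0% and 34.4% of all genes tested. Cyclin D1, Ccnd1, went from 282, 309 and 284 CPM untreated to 340.3, 486 and 468 CPM treated, and the inhibitors Cdkn1b and Cdkn2b fell by 1.06 and 0.88 on the log2 scale, as did the pocket proteins Rbl2 (-1.23) and Rb1 (-0.82). Of the DNA replication genes, 8 of 35 rose (22.9%) and 7 fell (20.0%), both below the shares of all genes. Pold2 was up by 0.84 on the log2 scale and Pole down by 0.91. In the mitosis list 0 of 30 rose and 22 fell, with a median of -0.82. Bub1b, a spindle checkpoint kinase, stood at 9.89, 9.88 and 15.5 CPM in the untreated libraries and 4.07, 4.85 and 4.84 CPM in the treated ones, and Mki67 fell by 1.04 on the log2 scale. Untreated library 3 had the highest mitotic level, with a list median of 0.37 above the untreated mean, against -0.20 and -0.15 in the other 2 and -0.67, -0.76 and -0.87 in the treated libraries, so all treated medians lay below all untreated ones.

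More than 1 in 2 contractile genes fell, and few rose. Of the list, 3 of 34 rose and 19 fell, with a median of -0.44. Its members form the actin and myosin apparatus, its regulators and the factors that switch it on. Without treated library 1 the counts were 3 and 22. Acta2 was not called, with a log2 change of -0.29 (95% interval -0.65 to 0.074), although it was called without library 1 (-0.43, limma adjusted p = 0.0111). Myh11, whose libraries did not overlap, fell by 0.99 on the log2 scale (SE 0.17, limma adjusted p = 0.000198). Myocd, the myocardin coactivator that drives the contractile programme, stood at 1.64, 1.63 and 2.56 CPM in the untreated libraries and 0.182, 0.598 and 0.797 CPM in the treated ones. The groups did not overlap, at a low level in both. Cacna1c, the pore of the L-type calcium channel that starts contraction, went from 14.2, 12.2 and 12.1 CPM untreated to 2.55, 3.46 and 7.05 CPM treated. Caldesmon, Cald1, went from 2504, 2599 and 2494 CPM untreated to 1223, 1389 and 1366 CPM treated, and Lmod1 and Mylk, the myosin light chain kinase, fell by 0.83 and 0.87 on the log2 scale. The coactivators Mrtfa and Mrtfb fell by 0.58 and 0.83 on the log2 scale, while their partner Srf rose by 0.58. Smoothelin, Smtn, and the potassium channel Kcnma1 rose by 0.35 and 0.74 on the log2 scale, and Cnn1, Tpm2 and Myl9 had no call, at 0.42, 0.24 and -0.27.

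The wider cytoskeleton moved in both directions. Of the actin and focal adhesion genes, 13 of 37 rose (35.1%) and 10 fell (27.0%), against 25.0% and 34.4% of all genes tested. Arhgap22, a regulator of RAC, rose by 1.93 on the log2 scale, profilin Pfn1 by 0.92 and cofilin Cfl1 by 0.76, while Fhl2 fell by 1.49, Rnd3 by 1.28 and the non-muscle myosin Myh10 by 1.18. Of the integrins, 6 of 19 rose (31.6%) and 9 fell (47.4%). Itga5, the fibronectin receptor subunit, went from 151, 152 and 141 CPM untreated to 519, 552 and 583 CPM treated. Itga1, a collagen receptor subunit, went from 171, 147 and 169 CPM untreated to 29.2, 37.7 and 37.6 CPM treated. These opposite changes, 1.89 and -2.19 on the log2 scale, had no overlap between groups, and the integrin list's median was -0.40 with all libraries and -0.11 without treated library 1. Itgb3 and Itga6 rose by 0.73 and 0.79 on the log2 scale, and Itga4 and Itga11 fell by 1.2 and 1.01.

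**Figure D4:**
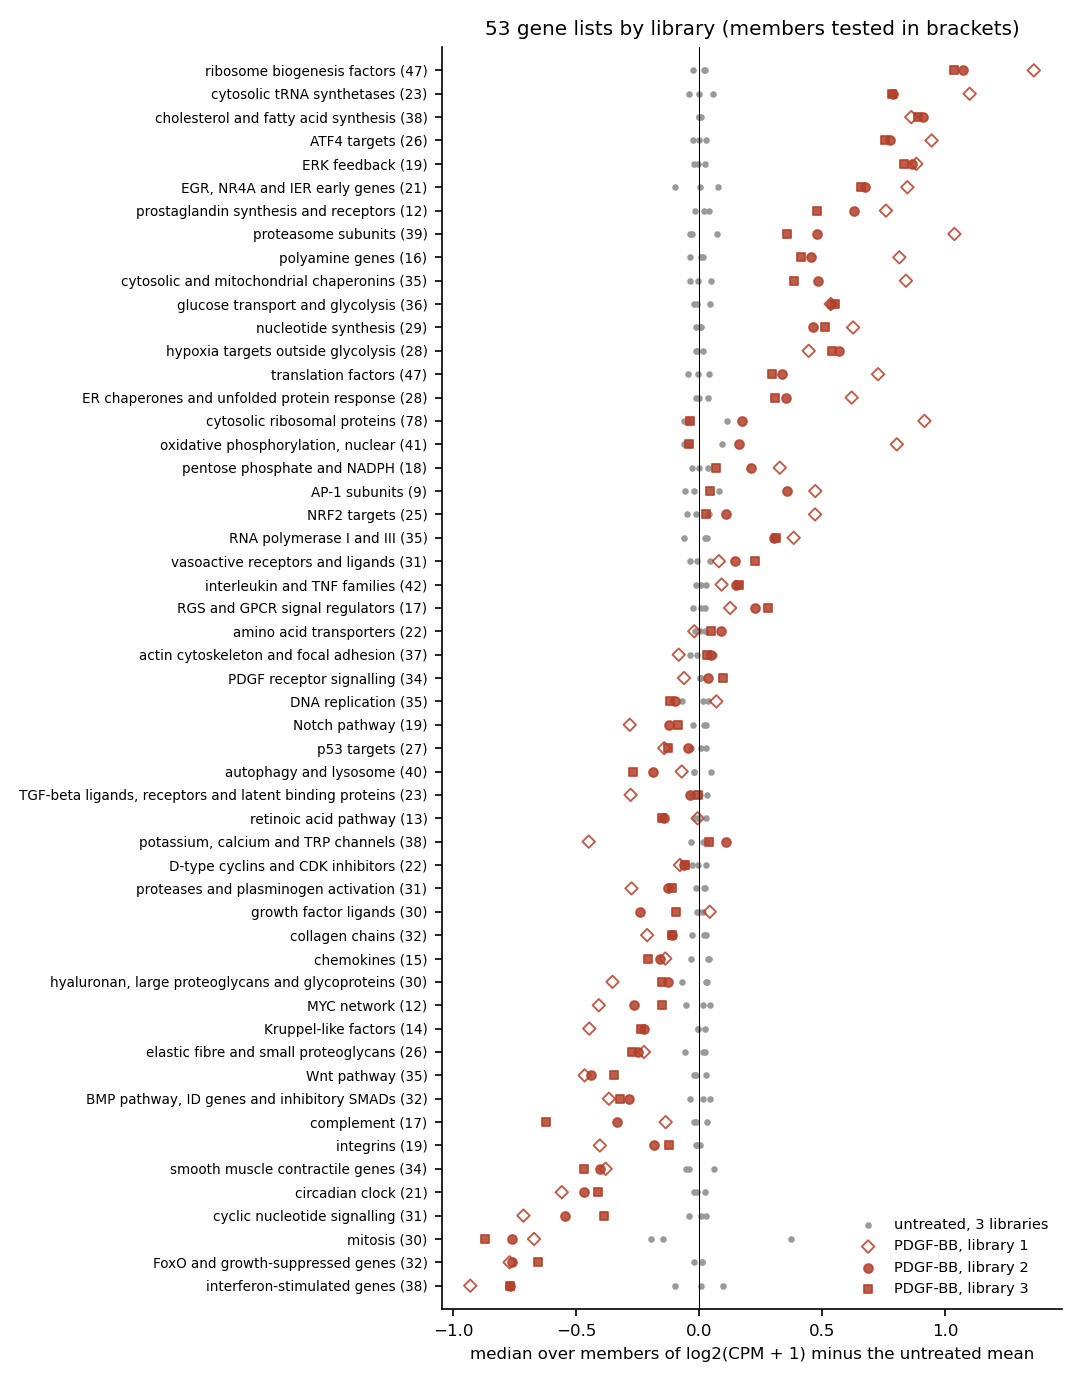
Median over list members of log2(CPM + 1) minus the untreated mean (horizontal axis) for the 53 pathway lists, in each untreated (grey) and treated (red, by symbol) wild-type library. Ribosome biogenesis stood highest in all 3 treated libraries and interferon-stimulated genes lowest in libraries 1 and 2, with mitosis lowest in library 3 at -0.87, and treated library 1 lay far from libraries 2 and 3 for ribosomal proteins, respiratory chain genes and channels.

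Matrix genes changed in both directions. Of the collagen chains, 11 of 32 rose (34.4%) and 13 fell (40.6%), against 25.0% and 34.4% of all genes tested. Col15a1, a basement membrane collagen, went from 4.92, 3.87 and 5.42 CPM untreated to 38.1, 47.3 and 49.0 CPM treated, and Col6a3 from 307, 283 and 329.6 CPM untreated to 869, 1518 and 1637 CPM treated. Col1a1, the main fibrillar chain, rose by 0.59 on the log2 scale and Col3a1 fell by 0.39, and the largest falls were in Col11a1 (-1.15), Col4a3 (-1.12) and Col4a4 (-0.97). Of the elastic fibre genes and small proteoglycans, 7 of 26 rose (26.9%) and 14 fell (53.8%). Emilin2 rose by 1.08 on the log2 scale and Loxl4, a cross-linking enzyme, by 0.86, while Prelp, Ogn, Omd and Aspn fell by 1.09, 0.99, 0.90 and 0.84, and elastin, Eln, was not called (-0.12). Lox, among the most abundant messages, went from 4898, 4392 and 4491 CPM untreated to 5563, 5871 and 5846 CPM treated. Of the hyaluronan genes and large glycoproteins, 9 of 30 rose (30%) and 13 fell (43.3%). Cd44, the hyaluronan receptor (ENSMUSG00000005087, chromosome 2, 102811141 to 102901665, GRCm38), stood at 118, 119 and 124 CPM in the untreated libraries and 904, 912 and 933 CPM in the treated ones. The values within each group lay close together, and the log2 change was 2.92 (SE 0.074, limma adjusted p = 5.44e-11). Versican, Vcan, and osteopontin, Spp1, rose by 2.03 and 1.22 on the log2 scale, and the hyaluronan synthase Has2 by 0.75. Cemip, a hyaluronan-degrading protein, went from 3001, 2993 and 2634 CPM untreated to 528, 876 and 924 CPM treated. Thbs1, thrombospondin 1, fell from 19568, 18726 and 19552 CPM untreated to 7647, 9793 and 9868 CPM treated, the largest loss in CPM of any gene the naming rule took, and Comp fell by 0.58 on the log2 scale.

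Genes of proteases and plasminogen activation changed in both directions. Of the list, 10 of 31 rose (32.3%) and 15 fell (48.4%), against 25.0% and 34.4% of all genes tested. The urokinase receptor gene Plaur stood at 15.7, 19.0 and 15.7 CPM in the untreated libraries and 137, 102 and 99.9 CPM in the treated ones. The groups did not overlap, at a log2 change of 2.67 (SE 0.16). The activators Plat and Plau rose by 1.04 and 0.99 on the log2 scale, and Serpinb2 by 2.47. Timp1, an inhibitor of metalloproteinases, went from 112, 131 and 116 CPM untreated to 1050.1, 646 and 595 CPM treated. Of the ADAMTS proteases, Adamts5, an aggrecanase, fell by 2.17 on the log2 scale, Adamts9 by 1.58, Adamts15 by 1.5 and Adamts6 by 1.40, and none of those tested rose. The membrane protease Mmp14 rose by 0.64 on the log2 scale, and Mmp2 was not called (-0.093).

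Genes of the TGF-beta, BMP, Notch, Wnt and retinoic acid pathways changed in both directions. In the TGF-beta list 4 of 23 rose (17.4%) and 9 fell (39.1%), against 25.0% and 34.4% of all genes. Its median of -0.10 was close to the -0.082 of all genes. The counts of this list were 7 and 9 without library 1, and edgeR called 6 higher and 6 lower. Tgfb1 rose by 0.94 on the log2 scale and Tgfb2 fell by 1.54. Inhbb, a subunit of activin B, went from 175, 154 and 165 CPM untreated to 35.3, 36.3 and 33.3 CPM treated, with no overlap. Of the BMP ligands, antagonists and targets, 6 of 32 rose and 18 fell. Noggin, Nog, an antagonist of BMP, went from 6.43, 5.40 and 7.33 CPM untreated to 0.607, 0.598 and 0.429 CPM treated. The BMP-responsive genes Id3, Smad6 and Smad9 fell by 1.01, 0.82 and 1.69 on the log2 scale, Bmp4 by 0.96, and Bmper rose by 1.57. Hey2, a target gene of Notch in the artery, went from 40.6, 39.1 and 39.9 CPM untreated to 4.68, 3.39 and 3.68 CPM treated (log2 change -3.06, SE 0.13). The ligand Jag1 went from 397, 378 and 400.3 CPM untreated to 113, 136 and 147 CPM treated, and the receptor Notch3, typical of smooth muscle, fell by 1.53 on the log2 scale, while Hes1 and Lfng rose by 0.68 and 1.10. In the Notch list 4 of 19 rose (21.1%) and 6 fell (31.6%), shares close to those of all genes. Without library 1 the counts were 6 and 6. Of the Wnt genes, 4 of 35 rose and 18 fell. The potentiators Rspo1 and Rspo3 fell by 1.92 and 1.61 on the log2 scale, the receptor Fzd6 by 1.70 and the ligand Wnt5a by 1.51, and Wnt2 and the factor Tcf7 rose by 2.07 and 1.44. Of the retinoic acid genes, 5 of 13 rose and 5 fell. Cyp26b1, which degrades the ligand, went from 812, 835 and 817 CPM untreated to 109, 129 and 128 CPM treated, and the binding protein Crabp2 from 0.252, 0.255 and 0.298 CPM untreated to 12.1, 8.77 and 6.13 CPM treated. Aldh1a3, which makes the ligand, rose by 1.88 on the log2 scale while Aldh1a1 fell by 0.94.

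Genes of vessel tone changed at many points. Of the cyclic nucleotide genes, which relay relaxing signals, 5 of 31 rose and 18 fell, with a median of -0.55. Npr3, the clearance receptor of natriuretic peptides, went from 563, 543 and 549.9 CPM untreated to 89.9, 114 and 112 CPM treated, and Pde5a, which degrades cGMP, from 277, 264 and 273 CPM untreated to 60.5, 80.8 and 83.7 CPM treated. Prkg2, a cGMP-dependent kinase, rose from 2.08, 1.93 and 1.79 CPM untreated to 26.4, 19.9 and 19.6 CPM treated, and the smooth muscle form Prkg1 fell by 0.55 on the log2 scale. Of the vasoactive receptors and ligands, 14 of 31 rose and 8 fell. The sphingosine phosphate receptor S1pr3 rose by 2.05 on the log2 scale, Ramp3 by 1.57, the protease receptor F2rl1 by 1.25 and the serotonin receptor Htr2a by 0.89. The adrenergic receptors Adra1d and Adra1b fell by 1.80 and 0.92 on the log2 scale, endothelin 1, Edn1, by 1.27 and its receptor Ednra by 0.50. Rgs2, which turns off the G protein of vasoconstrictors, stood at 16.8, 16.1 and 17.2 CPM in the untreated libraries and 214, 136 and 126 CPM in the treated ones. All treated libraries were above the untreated ones, library 1 highest (log2 change 3.13, SE 0.15). Of the 17 G protein regulators 8 rose and 6 fell. Of the 12 prostaglandin genes, 8 rose and 2 fell. Ptgs2, the inducible cyclooxygenase, went from 53.6, 59.6 and 45.6 CPM untreated to 172, 180.4 and 176 CPM treated, the transporter Slco2a1 rose by 1.43 on the log2 scale, and the thromboxane receptor Tbxa2r fell by 0.92. Of the ion channels and pumps, 14 of 38 rose and 16 fell. Kcnn4, the intermediate-conductance potassium channel of dividing smooth muscle, went from 2.46, 3.41 and 2.38 CPM untreated to 22.9, 17.9 and 16.5 CPM treated, while the calcium channels Cacna1a, Cacna1d and Cacna1h fell by 1.52, 1.49 and 1.01 on the log2 scale. The channel list's median was -0.11 with all libraries and 0.085 without library 1, a change of sign.

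Immune signals changed selectively, and interferon-stimulated genes fell as a block. Of 42 genes of interleukin and TNF families, 20 rose and 14 fell. Il1rl1, the receptor for interleukin 33, stood at 0.693, 0.815 and 0.834 CPM in the untreated libraries and 44.5, 38.5 and 36.4 CPM in the treated ones. It was barely measured without PDGF-BB, and the log2 change of 4.51 (SE 0.13) understates its ratio because 1 CPM is added before the logarithm. Tnfrsf12a, the receptor of TWEAK, went from 36.9, 46.2 and 35.9 CPM untreated to 374, 288 and 252 CPM treated, and Il11 rose by 1.23 on the log2 scale. Edar, the ectodysplasin receptor, went from 17.7, 17.2 and 17.9 CPM untreated to 0.850, 0.997 and 0.613 CPM treated and was the largest fall of all named genes (log2 change -3.36, SE 0.12). Its ligand Eda fell by 1.31 on the log2 scale, and Lifr and Il15 fell by 1.51 and 0.98. Il6 was not called (log2 change -0.20, 95% interval -0.62 to 0.22). Of the chemokine genes, 6 of 15 rose and 4 fell. Cxcl14 went from 0.693, 0.560 and 0.715 CPM untreated to 9.41, 10.8 and 8.46 CPM treated, and the monocyte attractants Ccl2 and Ccl7 rose by 1.39 and 1.26 on the log2 scale, while Cxcl1 fell by 0.80. Of the interferon-stimulated genes, 0 of 38 rose and 31 fell, with a median of -0.87. They encode sensors and effectors against viruses and are switched on by interferon. Ifit3 stood at 29.2, 26 and 30.9 CPM in the untreated libraries and 10.0, 6.18 and 6.25 CPM in the treated ones, and Ifit1 fell by 1.66 on the log2 scale and the RNA sensor Ifih1 by 1.43. The transcription factors Stat2 and Irf9, which are members of the list, fell by 0.83 and 0.78 on the log2 scale, while Ifitm3 and Isg20 were among the members without a call. Ifit3 and Ifit3b are near-identical copies, and how the counting split their reads is not known. The interferon element GAAANNGAA is shown in the Ifit3 window (chr19:34583279-34583578, plus strand), the list's largest change.
Ifit3: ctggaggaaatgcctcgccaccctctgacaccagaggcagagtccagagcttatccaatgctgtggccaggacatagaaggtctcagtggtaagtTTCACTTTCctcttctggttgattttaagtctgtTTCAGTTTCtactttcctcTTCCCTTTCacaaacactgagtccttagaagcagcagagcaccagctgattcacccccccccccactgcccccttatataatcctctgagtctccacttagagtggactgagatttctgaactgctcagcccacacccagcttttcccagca

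The window held 3 matches, all read from the other strand, and the first lies 155 to 147 bases before the start. The element was in 17 of 36 windows of these genes (47.2%), in 10.1% for genes called lower by at least 2-fold, and in 7.00% of all windows. Of the complement genes 9 of 17 fell and none rose, C3 by 0.89 on the log2 scale and C4b by 0.89.

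The genes with the largest changes outside these lists were of varied function. Nptx1, a neuronal pentraxin secreted at synapses, stood at 4.41, 4.02 and 4.35 CPM in the untreated libraries and 108, 142 and 139 CPM in the treated ones, the largest log2 change measured among named genes (4.62, SE 0.13, limma adjusted p = 5.44e-11). Crct1, an epidermal gene, went from 1.76, 3.51 and 3.28 CPM untreated to 57.0, 34.8 and 31.5 CPM treated, and Slurp1, a secreted ligand of nicotinic receptors, from 0.945, 0.611 and 0.655 CPM untreated to 22.3, 12.4 and 11.5 CPM treated. Both were highest in treated library 1, and neither group overlapped the other. Ngef, an exchange factor for small GTPases, rose by 3.37 on the log2 scale, the chromatin protein Hmga1 by 2.90, the sulfotransferase Chst1 by 2.83 and Samd5 by 2.77. Steap1, a metalloreductase, and Vgf, a secreted neuropeptide precursor, rose by 2.59 and 2.58 on the log2 scale. Hmga1b, a near-copy of Hmga1, rose by 2.72 on the log2 scale, and the 2 cannot be held apart with certainty. Bcat1, which takes the amino group off branched-chain amino acids, went from 4.73, 4.18 and 6.43 CPM untreated to 46.3, 43.7 and 46.2 CPM treated and is the highest-ranked of the 30 largest rises with the AP-1 site TGANTCA in its window (chr6:145076108-145076407, minus strand).
Bcat1: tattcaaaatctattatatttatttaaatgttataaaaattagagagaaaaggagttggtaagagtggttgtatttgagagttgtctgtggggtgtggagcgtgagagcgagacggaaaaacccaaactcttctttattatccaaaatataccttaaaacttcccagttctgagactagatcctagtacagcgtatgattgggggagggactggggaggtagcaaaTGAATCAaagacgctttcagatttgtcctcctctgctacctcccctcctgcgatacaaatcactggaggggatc

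The match lies 24 to 18 bases before the start, and windows were found for 19 of these 30 genes, 25 in all, of which 3 held the site. It was also in 9.68% of windows of genes called higher by at least 2-fold, 5.29% for genes called lower by at least 2-fold and 5.19% of all windows. Among lists that mostly fell, it was in 6 of 36 windows of interferon-stimulated genes (16.7%) and 4 of 37 of contractile genes (10.8%). The site was in 0 of 46 windows of ribosome biogenesis factors, which mostly rose, and 0 of 35 of growth-suppressed genes, which mostly fell.

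Among large falls outside the lists, Slc25a27, a mitochondrial carrier, went from 17.1, 18.1 and 17.3 CPM untreated to 0.668, 0.731 and 1.53 CPM treated, and the mineralocorticoid receptor Nr3c2 from 13.0, 13.2 and 14.1 CPM untreated to 0.668, 1.40 and 1.29 CPM treated. Hs6st1, which sulfates heparan sulfate, went from 131, 128 and 127 CPM untreated to 16.2, 21.2 and 21.9 CPM treated. None of these 3 had overlapping groups. Phactr1, a regulator of actin and phosphatase 1 known from genetic studies of coronary disease, fell by 2.60 on the log2 scale, Coq8a by 2.51, Cables1 by 2.50, the polarity gene Epb41l5 by 2.50 and the scaffold Magi1 by 2.41. Sema6c, Nipal3, Plscr2, Gprasp2, Gpr165, Lmcd1 and Acss3 fell by 2.47, 2.41, 2.40, 2.34, 2.20, 2.19 and 2.19 on the log2 scale. Large gains in CPM were those of Lox and of Plec, which links the cytoskeleton and went from 884, 883 and 892 CPM untreated to 1600.0, 2643 and 2633 CPM treated. Cav1, the main protein of caveolae, went from 806, 938 and 882 CPM untreated to 1987, 1978 and 1948 CPM treated, and Emp1, Lmna and Serpinh1 rose by 1.56, 1.28 and 0.82 on the log2 scale. By loss in CPM, Thbs1 was followed by Cemip and by Bgn, a small proteoglycan that fell by 0.36 on the log2 scale. Fat1, a giant cadherin, went from 3179, 2533 and 3003 CPM untreated to 608, 1492 and 1667 CPM treated, and Lrp1, a giant endocytic receptor, from 5191, 4526 and 5137 CPM untreated to 1914, 4025 and 4349 CPM treated. In both, treated library 1 was far below libraries 2 and 3, and without it the log2 changes were -0.87 and -0.24 in place of -1.33 and -0.62. The fall of Lrp1 was not called with TMM scaling (limma adjusted p = 0.0609). Sptbn1, Fbn1 and Fbln5 fell by 1.05, 0.55 and 0.45 on the log2 scale, Fbn1 by 0.31 without treated library 1.

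The wild-type response was then set against that of the cells labelled knockout by the interaction, in which the wild-type change is subtracted from that of the labelled knockout. Tigar, the targeted gene, was not lower in libraries labelled knockout, at 11.2 ± 1.12 CPM (SD, n = 3) untreated, against 7.50 ± 0.955 CPM in wild-type cells, so these cells are named by their label only. The interaction was called for 557 genes, 3.92% of those tested, 319 positive and 238 negative. Without treated library 1 it was called for 1554 genes, among which were 556 of the 557. This count rested on single libraries: it was 907 without treated library 3 and 276, 357 and 320 without untreated libraries 1, 2 and 3. The wild-type libraries enter both the response and this difference. Nptx1 changed by 4.62 on the log2 scale in wild-type and by 1.91 in labelled knockout cells, an interaction of -2.72 (SE 0.18, limma adjusted p = 1.35e-05). Rgs2 changed by 3.13 on the log2 scale and 1.29, Mthfd2 by 2.56 and 0.60, and Errfi1 by 2.37 and 0.94. Nrg1 changed by -2.53 on the log2 scale and -0.84, and Hey2 by -3.06 and -1.58. Dkk2, a Wnt antagonist, moved in opposite directions, at -0.62 on the log2 scale and 1.11 (interaction 1.73, limma adjusted p = 0.000159), and Trib3, a pseudokinase of the stress response, at 0.95 and -0.48. Sost, another Wnt antagonist, fell further in labelled knockout cells (log2 change -1.0 and -2.44). Rassf4, Fgd3, Fhl2, Tnfsf15 and Dnajb13 fell in wild-type by 1.90, 1.97, 1.49, 1.49 and 1.81 on the log2 scale and had -0.28, -0.43, 0.11, 0.19 and -0.16 in labelled knockout cells. Of the rising genes, Tspan11, Epgn, Adgrb1 and Eif3j2 had 0.17, 0.43, -0.076 and -0.40 there, against 1.69, 1.92, 1.35 and 1.67 in wild-type. Eif3j2 is a near-copy of Eif3j1. Of 521 genes called both in wild-type and in the interaction, 507 changed less, or the other way, in labelled knockout cells. Of the 1411 genes changed at least 2-fold in wild-type, 300 had an interaction, 298 of them in this way. Both sets were taken by their wild-type change, which is subtracted in the interaction. The choice itself favours a smaller change in labelled knockout cells, so these counts cannot show that their response was smaller in general. By list, 10 of 23 tRNA synthetase genes, 11 of 36 glycolysis genes and 8 of 26 ATF4 targets had a negative interaction. A positive one was found for 7 of 32 growth-suppressed genes. Over all genes 1.68% were negative and 2.25% positive, a low background for lists with many genes called in wild-type. Smaller changes in labelled knockout cells were also found for genes outside these lists, such as Nptx1. Lists that mostly rose differed in this. Negative interactions were found for 7 of 28 hypoxia targets outside glycolysis. They were found for only 2 of 47 ribosome biogenesis factors, 0 of 39 proteasome subunits and 0 of 38 sterol and fatty acid genes.

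**Figure D5:**
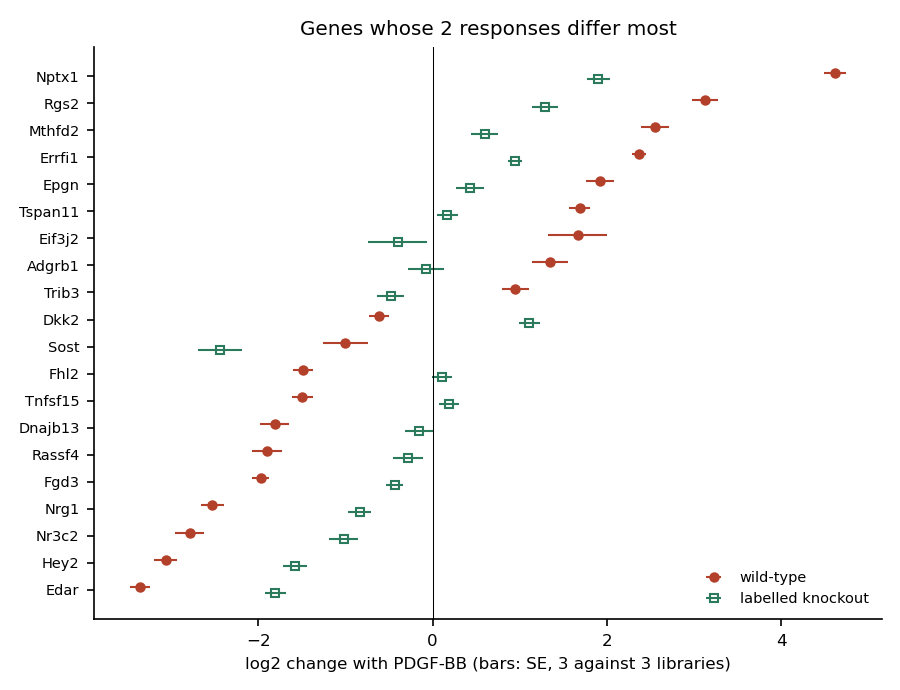
Log2 change with PDGF-BB in wild-type (filled red) and labelled knockout cells (open green) for the 20 genes that the naming rule took by size of the interaction, with bars of 1 SE. The wild-type change lay farther from 0 than the labelled knockout change for all except Dkk2 and Sost.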

How the data were processed

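Poly(A) RNA of 12 libraries, 3 in each of 4 groups, was sequenced after a stranded TruSeq preparation, per the labels' protocols. The submitters' processing notes name HISAT2, HTSeq and mm10, with no versions, and the strand setting is not given in the sources used here. The deposited table, in GRCm38.p6 coordinates per the file headers, was named for FPKM, but its values are CPM made by the authors: every library summed to 1000000, and all values were whole multiples of the value of 1 read (tolerance 0.001 reads), from which the reads per gene were recovered. Wild-type libraries held 15045270 to 19639729 reads. Genes with at least 1 CPM in at least 3 of the 12 libraries were kept, and log2(CPM + 1) was tested with limma 3.58.1 (R 4.3.3), with a trend for the spread, 1 mean per group over all 12 libraries and Benjamini-Hochberg adjustment over the 14202 genes, at a threshold of 0.05. Tests were 2-sided, and the script was tested on simulated data. Alternatives were pseudocounts of 0.5 and 0.1, a mean of at least 5 CPM, no filter, TMM and quantile scaling, wild-type groups only, a replicate block, array weights (fitted gene by gene, since the default fit did not converge), removal of each library's trend with exon length, edgeR 4.0.16 and DESeq2 1.42.0 on the recovered reads, and each library left out. The comparison, the 53 pathway lists, the 9 marker lists and the motifs were chosen with earlier results of these data known. Genes were named by rule: the 30 largest log2 changes and the 10 largest differences in CPM per direction among called genes of at least 1 CPM without overlap between groups, up to 4 called members per list, the 10 largest interactions per sign, and 6 calls lost without treated library 1. Other list members were named after their values were seen, and some genes that the rule takes are not reported here. Of the 14202 genes, 175 share at least 50% of their exonic bases with exons of other genes.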

Additional observations from a re-analysis of the deposited data

Results flagged for a closer look

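By limma's interaction test, 100 genes named in the text differed between the wild-type and labelled knockout responses (adjusted p from 1.35e-05 to 0.05). Over all genes tested 3.92% differed. Many genes were named for a large wild-type change or a large interaction, and the wild-type libraries enter both. The count is therefore not a result independent of the naming. The values are interactions on the log2 scale, labelled knockout response minus wild-type response, and no cause was weighed.

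Among genes of amino acid and folate metabolism the interaction was -1.96 for Mthfd2, -1.43 for Trib3, -1.31 for Asns, -1.21 for Bcat1, -1.03 for Aars, -1.01 for Shmt2, -1.0 for Slc7a5 and -0.94 for Mthfd1l. Among genes of glucose use and hypoxia it was -1.36 for Hk2, -1.11 for Slc16a3, -1.03 for Egln3, -0.96 for Higd1a, -0.87 for Ldha, -0.85 for Pfkl, -0.76 for Pgk1, -0.76 for Ak4, -0.73 for Slc2a1, -0.67 for Pdk1, -0.63 for Gapdh and -0.58 for Vegfa. Among early genes, ligands and signalling genes it was -1.84 for Rgs2, -1.49 for Epgn, -1.42 for Errfi1, -1.13 for Hbegf, -1.13 for Ramp3, -1.11 for Jun, -0.89 for Arc, -0.88 for Tnfrsf12a, -0.82 for Bhlhe40 and -0.55 for Map2k1. Among genes of protein synthesis, folding and growth it was -2.07 for Eif3j2, -0.81 for Hmga1b, -0.81 for Cycs, -0.73 for Hmga1, -0.73 for Hspa9, -0.65 for Ddx21, -0.64 for Odc1, -0.54 for Xbp1 and -0.54 for Eif4e. The other negative values were -2.72 for Nptx1, -1.52 for Tspan11, -1.44 for Sost, -1.43 for Adgrb1, -1.29 for Slurp1, -0.99 for Steap1, -0.77 for Tcf7, -0.61 for Bmper, -0.60 for Chst1 and -0.44 for Cd44.

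Of the positive interactions, those of receptors, ligands and transcription factors were 1.77 for Nr3c2, 1.73 for Dkk2, 1.69 for Nrg1, 1.68 for Tnfsf15, 1.56 for Edar, 1.48 for Hey2, 1.08 for Rspo1, 1.06 for Klf11, 1.01 for Lifr, 0.92 for Vegfc, 0.85 for Dbp, 0.84 for Jag1, 0.71 for Edn1, 0.66 for Fzd6, 0.64 for Npr3, 0.53 for Adra1d and 0.39 for Tgfb2. Among growth-suppressed, signalling and stress genes they were 1.13 for Txnip, 1.10 for Klhl24, 0.92 for Angptl4, 0.83 for Bmf, 0.80 for Fbxo32, 0.72 for Pik3r1, 0.68 for Pde5a, 0.67 for Ifih1, 0.64 for Gab1, 0.58 for Pdk4, 0.57 for Btg2 and 0.42 for Mcoln1. Among cytoskeletal, contractile and matrix genes they were 1.61 for Rassf4, 1.60 for Fhl2, 1.54 for Fgd3, 1.29 for Hs6st1, 1.24 for Cemip, 0.98 for Cacna1a, 0.74 for Lmcd1, 0.67 for Magi1, 0.67 for Lmod1, 0.62 for Cald1 and 0.44 for Rnd3. The other positive values were 1.66 for Dnajb13, 1.39 for Acss3, 1.37 for Slc25a27, 1.36 for Nipal3, 1.13 for Cyp26b1, 0.87 for Plscr2, 0.78 for Fads1, 0.72 for Sema6c, 0.68 for Slc6a6, 0.63 for Coq8a and 0.40 for Prps2.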

How the results depend on the processing

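The counts of genes higher and lower stayed within 1.5 times under every alternative run, from 2942 to 4528 higher and from 3530 to 5778 lower, with leave-one-out ranges of 3073 to 3894 and 4231 to 5283. Genes changed at least 2-fold, 1411 in all, numbered 2228 by DESeq2, 2222 by edgeR and 2242 with a pseudocount of 0.1, and 1266 to 1624 when each library was left out. The 528 at least 2-fold higher numbered 849 by DESeq2 and 893 by edgeR (482 to 622 with a library left out), and the 883 lower 1379, 1329 and, with a pseudocount of 0.1, 1552 (784 to 1002). The 557 interactions numbered 910 by DESeq2, 2814 with array weights, 1031 with the exon length trend removed, 371 with no filter, 228 with the replicate block, and 276 to 1554 with a library left out. By edgeR without treated library 1, an alternative chosen after seeing the data, they numbered 1524. The cause of these shifts was not tested. For named genes no called change turned. Of 7586 alternative values for genes called with all libraries, 7491 kept the call and 95 lost it. Of 453 values for genes not called, 42 gained a call and 19 moved by over 1 SD between replicates without one. Of 1946 interaction values 227 lost their call. Most losses fell on small or low changes, with Tnnt2, Egf, Rgs5, Sdk1, Paqr3 and Lrp1 losing theirs most often. List medians moved by more than the spread between libraries in 216 of 1178 cases and changed sign most often for ion channels. If the replicate numbers pair the libraries is not known. Deviations of same-numbered wild-type libraries correlated at -0.23, -0.21 and 0.15 across genes, and those of other numbers at -0.34 to 0.35. With 3 libraries a group and treated library 1 apart from its replicates, these values cannot decide it. With the number as a block 3345 genes were higher and 4611 lower. Depth and 3 libraries a group limit what can be seen of small changes, since a call needs a change well above its SE, whose median was 0.12.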

Other observations

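Outside the pathway lists, transcripts that do not code for protein fell more often than they rose. Of 230 lincRNA genes 25 rose and 122 fell, with a median log2 change of -0.43, and of 289 antisense genes 16 rose and 139 fell, with a median of -0.39, against 25.0% and 34.4% of all genes tested. Of 50 lncRNA genes that share a promoter with a gene on the other strand, none rose and 36 fell. Without treated library 1 the counts were 23 and 123 for lincRNA genes, 18 and 125 for antisense genes, and 0 and 37 for the last class. Antisense and overlapping genes are uncertain where the counting did not use strand. The classes also differ in level, and of the 1907 genes with a mean under 2 CPM, 144 rose and 697 fell. Processed pseudogenes had 100 rises and 48 falls among 469 and a median of 0.19, but 78 and 48 with a median of 0.040 without treated library 1, and their reads may belong to the parent genes.

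Falls were also more frequent among genes of long messages. Of the 687 genes with 8000 or more exonic bases, 81 rose and 357 fell, with a median of -0.38, and without treated library 1 the counts were 158 and 344, with a median of -0.19. Of the 1644 genes under 1000 bases, 351 rose and 355 fell, and without that library 295 and 440. The part of length itself in these falls was not tested.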
